A study of Mus musculus with 4 samples.

Results

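The 10 genes that encode the factors that make piRNAs, or that sit in the cytoplasmic granules where piRNAs are made, were followed through meiotic male germ cells that lack either Pld6 or Dnmt3l. They were chosen by name for their known role, with earlier results of these data known: Pld6, Asz1, Gpat2, Mov10l1, Pnldc1, Henmt1, Ddx4, Mael, Gtsf1 and Fkbp6, 10 of the 23980 genes in the deposited table, and each was found in it once. The cells were leptotene/zygotene (L/Z) spermatocytes, the stages in which meiotic chromosomes condense and begin to pair, purified by FACS from mice of 3 to 4 weeks with an F1 hybrid background of C57BL/6J and MSM/Ms. PolyA(+) RNA of 4 genotypes was sequenced with strand discrimination, as 1 library each: a Pld6 wild type (Pld6 WT), a Pld6 knockout (Pld6 KO), a Dnmt3L heterozygote (Dnmt3L Het) and a Dnmt3L knockout (Dnmt3L KO). The Pld6 WT and the Dnmt3L Het library are the 2 controls. The study asked whether these mutations change gene expression through nearby retrotransposons. The same libraries show how the piRNA machinery itself is expressed when Pld6, a part of it, or Dnmt3l, which serves de novo DNA methylation at large, is lost.

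Neither mutation is described as limited to germ cells. Heterozygotes kept on C57BL/6J were mated with animals that carried the mutation on MSM/Ms after several generations of crossing. The Dnmt3L Het still carries 1 intact Dnmt3l allele and is not a wild type. Dnmt3l, which encodes a cofactor of the de novo DNA methyltransferases, gave 101 fragments in the Dnmt3L Het, 46 in the Pld6 WT, 20 in the Pld6 KO and 0 in the Dnmt3L KO library, which allows up to 3. How many animals each library came from, and whether the animals of a line were littermates, is not given in the sources used here. Each mutant is a single library, so its values carry no replicate check.

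PIWI-interacting RNAs (piRNAs) are small RNAs of the germ line that guide PIWI proteins to retrotransposon transcripts. Long precursor RNAs are unwound and cut at the outer surface of mitochondria, the resulting intermediates are loaded into PIWI proteins, trimmed and methylated at their end, and the complexes gather in nuage, the electron-dense germ granules that lie between mitochondria and around the nucleus. In fetal male germ cells piRNAs also direct de novo DNA methylation at some retrotransposons, while Dnmt3l is needed for such methylation far more widely. Mice without Pld6 or without Dnmt3l lose their spermatocytes early in meiosis.

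Of the 10 genes, Mael and Gtsf1 were lower in both mutants, Pld6 was nearly absent from the Pld6 KO, and Fkbp6 was at almost the same level in all 4 libraries (226 to 242 FPKM). The start regions of Mael, Gtsf1 and Fkbp6 are therefore shown here, since they belong to the genes that differed most and least between genotypes apart from the deleted one (for Fkbp6, 1 of its annotated starts). Each run is 300 bases, from 250 before to 50 after the annotated start, in RefSeq (GRCm38.p6), on the strand of the gene and 5′ to 3′. Capitals mark CACGTG, an E-box, and AACNG on either strand, the core bound by MYB proteins such as the meiotic activator A-MYB.

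Mael, chr1:166238695-166238994, minus strand: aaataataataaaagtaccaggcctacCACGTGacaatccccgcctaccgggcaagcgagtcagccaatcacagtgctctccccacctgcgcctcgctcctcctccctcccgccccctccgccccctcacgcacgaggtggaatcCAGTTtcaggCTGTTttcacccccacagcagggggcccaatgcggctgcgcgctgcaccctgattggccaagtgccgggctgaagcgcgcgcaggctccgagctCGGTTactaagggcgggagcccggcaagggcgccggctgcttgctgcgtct
Gtsf1, chr15:103430378-103430677, minus strand: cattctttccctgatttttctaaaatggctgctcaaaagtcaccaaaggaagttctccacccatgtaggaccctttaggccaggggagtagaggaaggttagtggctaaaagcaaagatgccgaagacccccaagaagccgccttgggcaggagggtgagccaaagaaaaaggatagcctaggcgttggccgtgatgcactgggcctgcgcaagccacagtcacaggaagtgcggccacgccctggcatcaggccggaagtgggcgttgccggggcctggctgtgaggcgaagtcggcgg
Fkbp6, chr5:135349864-135350163, minus strand: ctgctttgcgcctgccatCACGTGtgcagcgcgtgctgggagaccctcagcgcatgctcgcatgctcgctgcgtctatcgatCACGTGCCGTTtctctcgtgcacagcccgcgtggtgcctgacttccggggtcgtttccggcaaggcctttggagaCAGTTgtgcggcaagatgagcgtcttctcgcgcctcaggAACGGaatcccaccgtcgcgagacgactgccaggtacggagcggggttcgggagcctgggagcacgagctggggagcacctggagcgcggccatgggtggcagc

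Positions are those of the leftmost base, with the start base as 0. In the Mael window CACGTG was at -223 and AACNG at -105, -95 and -1, the last of them spanning the start itself. The Fkbp6 window has CACGTG at -232 and -168, the second directly followed by an AACNG, with other AACNG matches at -93 and -54. In the Gtsf1 window neither motif was found. RefSeq windows were on hand for 9 of the 10 genes (not for Pnldc1), as 11 windows because some genes have more than 1 start. AACNG occurred in 10 of the 11 windows and 8 of the 9 genes, beside 80.3% of all 32851 windows of 27025 genes. CACGTG occurred in 6 windows and 5 genes (Pld6, Mov10l1, Mael, Ddx4 and Fkbp6), beside 7.15% of all windows. The 2 Fkbp6 windows overlap and hold the same 2 CACGTG sites, so these are counted in both windows. CACGTG contains a CpG, and the 11 windows held 13 to 38 CpG each, beside a median of 7 over all windows. The share of all windows was not matched for CpG content. The E2F core TCCCGC, searched on both strands, was in 3 windows (Gpat2, Ddx4 and Mael), beside 19.98% of all, and the CRE TGACGTCA in none, beside 1.79%. No overlap between motifs was removed. These matches describe the letters only, and Mael and Gtsf1, which behaved alike, did not share them.

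Levels are given in FPKM, fragments scaled to transcript length and to library depth, as deposited. A gene was counted as lower in a mutant when its FPKM + 1 was less than that of each control by a factor above 2, and as higher likewise, a rule of size that carries no p-value. Log2 changes are on the scale of FPKM + 1, which shrinks the change of low genes, against the control of the same line (Pld6 WT for Pld6 KO, Dnmt3L Het for Dnmt3L KO) unless stated. By this rule 3 of the 10 genes were lower and 0 higher in the Pld6 KO, where 5.41% of all genes were lower (8.57% of those with a mean FPKM of at least 1) and 1.04% higher. The 3 were Mael, Gtsf1 and Pld6 itself, which is deleted in that library. Its call was therefore set by the design, here and in the other Pld6 KO counts. In the Dnmt3L KO 2 of 10 were lower and 0 higher, where 5.78% of all genes were lower (9.16% of those with a mean FPKM of at least 1) and 2.14% higher. The counts against the control of the same line alone were again 3 and 2, where 6.46% and 8.22% of all genes were lower. Against the control of the other line alone they were 4 in the Pld6 KO, with Mov10l1 higher, where 13.4% of all genes were lower and 5.55% higher. In the Dnmt3L KO they were 5, with Pld6, Gpat2 and Ddx4 lower beside Mael and Gtsf1, where 8.75% of all genes were lower and 12.1% higher. The median change of the 10 genes was -0.48 in the Pld6 KO and -0.21 in the Dnmt3L KO, beside 0.0067 and 0.063 for genes with a mean FPKM of at least 1. Without Pld6 itself the medians of the other 9 were -0.37 and -0.062.

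**Figure D1:**
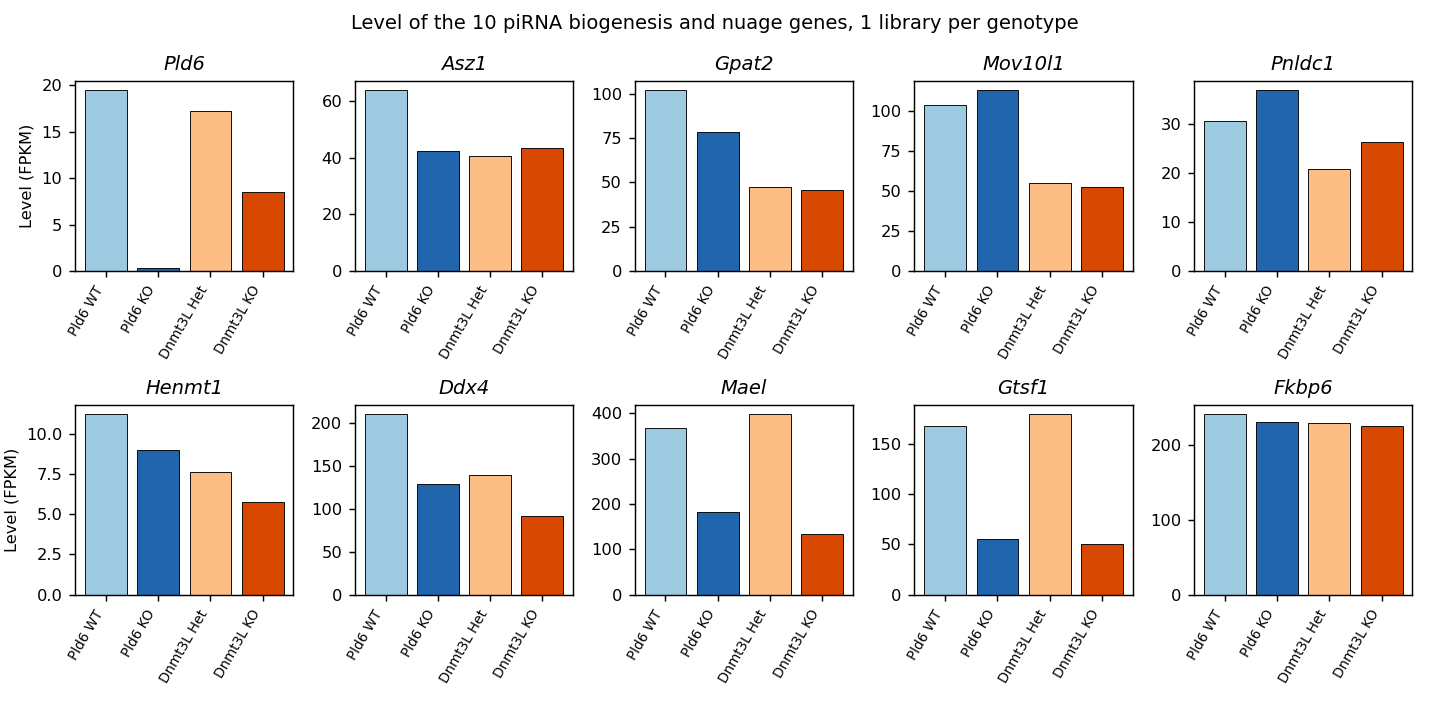
FPKM of the 10 genes, 1 panel per gene with its own linear axis from 0, where each bar is 1 library (light for the control and dark for the mutant of a line, blue for the Pld6 and orange for the Dnmt3L line). Mael and Gtsf1 are lower in both mutants than in both controls, Pld6 is at 0.334 FPKM in the Pld6 KO, and the 4 Fkbp6 bars are nearly level between 226 and 242 FPKM.

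Pld6 encodes the nuclease Zucchini/MitoPLD of the outer mitochondrial membrane, which cuts piRNA precursors. The gene lies at chr11:59783893-59787657 on the minus strand and has 3 curated RefSeq transcripts, 1 of them noncoding. It was at 19.5 FPKM in the Pld6 WT and 17.2 in the Dnmt3L Het, at 8.55 in the Dnmt3L KO and at 0.334 in the Pld6 KO. Both controls lay close together and both mutants lay below them, the Pld6 KO far below. The Pld6 KO library held 14 Pld6 fragments, beside 1197 in the Pld6 WT, 1643 in the Dnmt3L Het and 592 in the Dnmt3L KO. Its FPKM was 58.3-fold lower than in the Pld6 WT, or 1.72% of it (95% exact Poisson interval of the 14 fragments, 0.938% to 2.88%, for counting error only), which checks the label. In the Dnmt3L KO, where the gene is intact, Pld6 was at 49.7% of the Dnmt3L Het level, a log2 change of -0.93, just short of the 2-fold rule. With a pseudocount of 0.1 FPKM in place of 1 it passed. After division by the L/Z markers its log2 change against both controls went from -1.02 to -0.061.

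A pair of membrane proteins hold the machinery at mitochondria: Asz1 (also called GASZ), an ankyrin-repeat scaffold, and Gpat2, an acyltransferase-family protein bound to the outer membrane. Asz1 (chr6:18050964-18109061, minus strand) was at 63.9 FPKM in the Pld6 WT, 42.2 in the Pld6 KO, 40.7 in the Dnmt3L Het and 43.4 in the Dnmt3L KO. The Pld6 WT library thus stood above the other 3, which were nearly equal, and the log2 change was -0.59 in the Pld6 line and 0.090 in the Dnmt3L line. Gpat2 (chr2:127425154-127436093, plus strand) was at 102 FPKM in the Pld6 WT, 78.5 in the Pld6 KO, 47.5 in the Dnmt3L Het and 45.5 in the Dnmt3L KO. Here the line separated the libraries more than the mutation did: the controls differed 2.14-fold, while the log2 changes within lines were -0.37 and -0.062.

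Mov10l1, the RNA helicase that feeds precursors to the nuclease, behaved like Gpat2. The gene (chr15:88982891-89055152, plus strand) was at 103.8 FPKM in the Pld6 WT, 112.9 in the Pld6 KO, 54.6 in the Dnmt3L Het and 52.3 in the Dnmt3L KO. The controls differed 1.90-fold, and both libraries of the Pld6 line lay above both of the Dnmt3L line. Within lines the log2 changes were 0.12 and -0.060. Among all pairs of the 10 genes, the profiles of Mov10l1 and Gpat2 were closer than any but those of Henmt1 and Ddx4 (0.17), with a root mean square difference of 0.18 on the log2 scale over the 4 libraries after centring each gene.

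After loading, the exonuclease Pnldc1 trims piRNAs and the methyltransferase Henmt1 modifies their last ribose, which protects them from decay. Pnldc1 (chr17:12888723-12910580, minus strand) was the only one of the 10 genes above its own control in both lines, at 30.7 FPKM in the Pld6 WT, 37.0 in the Pld6 KO, 20.8 in the Dnmt3L Het and 26.4 in the Dnmt3L KO. These are 121% and 127% of the control of the line, log2 changes of 0.26 and 0.33, which is less than the difference between the controls. Henmt1 (chr3:108939454-108979885, plus strand) was the lowest of the 10 in the controls, at 11.2 FPKM in the Pld6 WT, 8.99 in the Pld6 KO, 7.65 in the Dnmt3L Het and 5.79 in the Dnmt3L KO. Its log2 changes of -0.29 and -0.35 were also smaller than the difference between the controls. Genes on the opposite strand overlap 144 exonic bases of Pnldc1 (6.88%) and 348 of Henmt1 (14.2%), and whether the counting used strand is not given in the sources used here, so some of these fragments may belong to the partner.

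Ddx4 and Mael are components of nuage. Ddx4 (VASA, MVH), a DEAD-box RNA helicase and a classic germ cell marker, lies at chr13:112598333-112652633 on the minus strand. It was at 210.6 FPKM in the Pld6 WT, 129.0 in the Pld6 KO, 139.1 in the Dnmt3L Het and 91.7 in the Dnmt3L KO. Both mutants were below both controls, at 61.2% and 65.9% of the control of the line (log2 changes of -0.70 and -0.60), which did not reach the 2-fold rule.

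Mael (Maelstrom), an HMG-box protein needed for piRNA production and retrotransposon silencing, lies at chr1:166201385-166238744 on the minus strand. It was the most abundant of the 10 genes in the controls, at 369 FPKM in the Pld6 WT and 399 in the Dnmt3L Het, with 182 in the Pld6 KO and 133 in the Dnmt3L KO. The controls differed 1.08-fold, and both mutants lay below both of them: 2.03-fold below the Pld6 WT and 3.00-fold below the Dnmt3L Het. The fragments behind these levels numbered 20175 in the Pld6 WT, 7744 in the Pld6 KO, 34823 in the Dnmt3L Het and 8488 in the Dnmt3L KO, so counting error was small, and the controls' mean was 384 ± 21.5 FPKM (SD, n = 2). In the Pld6 KO Mael passed the 2-fold rule only narrowly, with a log2 change of -1.02 in its line.

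Gtsf1, a small CHHC zinc-finger protein that helps PIWI proteins cleave their targets, showed the largest difference after Pld6. The gene (chr15:103402458-103430445, minus strand) was at 167 FPKM in the Pld6 WT and 179.7 in the Dnmt3L Het, and at 55.3 in the Pld6 KO and 50.4 in the Dnmt3L KO. The controls were again close, at 173 ± 8.71 FPKM (SD, n = 2), and the mutants were close to each other, 3.02-fold and 3.57-fold below the control of the line. The log2 changes were -1.58 and -1.81, from 3542 fragments in the Pld6 WT, 912 in the Pld6 KO, 6063 in the Dnmt3L Het and 1241 in the Dnmt3L KO. Mael and Gtsf1 resembled each other in profile, with a root mean square difference of 0.23, and the next nearest gene to each was Ddx4, at 0.41 from Mael and 0.59 from Gtsf1.

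Fkbp6, an immunophilin that works with HSP90 when PIWI proteins are loaded, did not follow them. The gene (chr5:135291704-135351809, minus strand) was at 242 FPKM in the Pld6 WT, 231 in the Pld6 KO, 229.9 in the Dnmt3L Het and 226 in the Dnmt3L KO. The highest library was 1.07-fold above the lowest, and the log2 changes were -0.066 and -0.022. For the other 9 genes that ratio ran from 1.57 (Asz1) to 58.3 (Pld6).

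**Figure D2:**
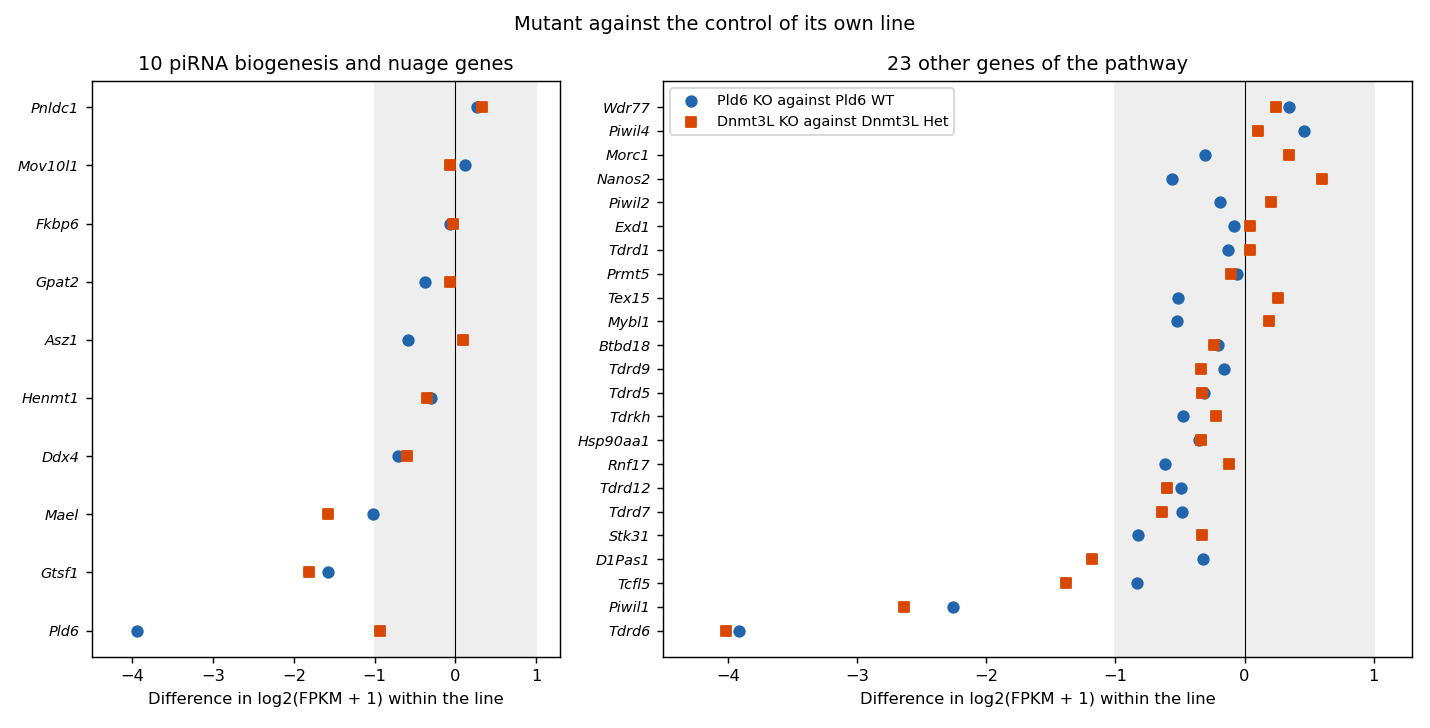
Log2 change of FPKM + 1 in the Pld6 KO against the Pld6 WT (circles) and in the Dnmt3L KO against the Dnmt3L Het (squares), 1 library per genotype, for the 10 genes (left) and 23 other genes of the pathway (right), with a gray band for changes within 2-fold. Mael and Gtsf1 are below it in both lines, Pld6 is below it in the Pld6 line and at its edge in the Dnmt3L line, and the other 7 genes are inside it, while on the right Piwil1 and Tdrd6 are below it in both lines.

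The comparisons within the lines share no library. Of the 10 genes, 7 were below the control of the line in both (Pld6, Gpat2, Henmt1, Mael, Ddx4, Gtsf1 and Fkbp6), 1 was above it in both (Pnldc1), and 2 went opposite ways (Mov10l1 and Asz1). These counts are of direction only: the 7 include Fkbp6, at log2 changes of -0.066 and -0.022, and Pld6, which is deleted in the Pld6 KO. Among genes with a mean FPKM of at least 1, 31% were lower in both lines, 36.3% higher in both and 31.7% opposite. Of the 10 genes only Mael and Gtsf1 were more than 2-fold lower in both, as were 8.06% of genes with a mean FPKM of at least 1. The mutant libraries themselves also differed: the median log2 difference of the 10 genes, Dnmt3L KO minus Pld6 KO, was -0.46, and that of the controls, Dnmt3L Het minus Pld6 WT, was -0.52. Both Dnmt3L libraries were thus at the lower median. Line, genotype and sort cannot be told apart between the controls.

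Taking Ddx4 of the same library as the reference cancels any factor that scales both genes of a library alike. As a ratio of FPKM, which is per length, Mael was at 1.75 times Ddx4 in the Pld6 WT and 1.41 in the Pld6 KO, and at 2.87 in the Dnmt3L Het and 1.45 in the Dnmt3L KO. Gtsf1 went from 0.794 to 0.429 in the Pld6 line and from 1.29 to 0.549 in the Dnmt3L line. Both ratios were below those of the control in each line. Pnldc1 went the other way by nearly the same factor in both lines, from 0.146 to 0.287 in the Pld6 line and from 0.149 to 0.287 in the Dnmt3L line. Its own level was at 121% and 127% of the control of the line, and that of Ddx4 at 61.2% and 65.9%. Most of the rise in this ratio thus lay in the lower Ddx4 level. Fkbp6 went from 1.15 to 1.79 and from 1.65 to 2.47, and Mov10l1 from 0.493 to 0.875 and from 0.393 to 0.571. Of the 9 genes other than Ddx4, 6 had a higher ratio than the control of the line in both lines and 3 a lower one (Pld6, Mael and Gtsf1). With Fkbp6 as the reference, 1 was higher (Pnldc1) and 6 lower in both. The counts thus follow the reference, since a gene of unchanged level gains in ratio when Ddx4 falls. The share of all genes was not counted for either reference.

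**Figure D3:**
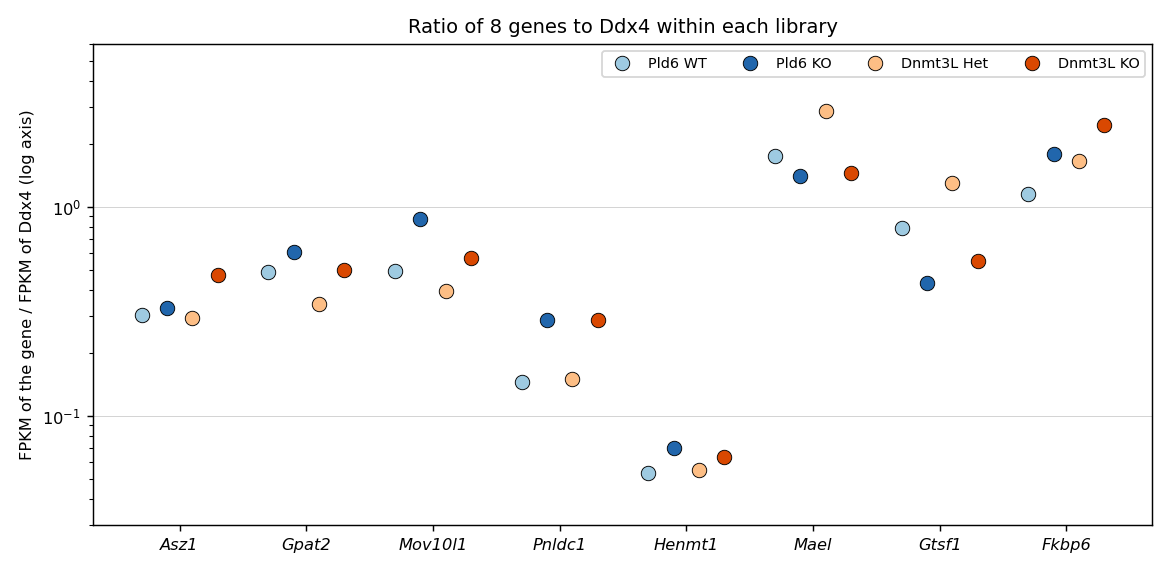
Ratio of FPKM to the FPKM of Ddx4 in the same library (log axis) for 8 genes in the 4 libraries, with each point 1 library and Pld6 left out. Pnldc1 is at 0.146 and 0.149 in the controls and 0.287 in both mutants, while Gtsf1 and Mael are lower in each mutant than in the control of its line. Ddx4 itself is at 61.2% (Pld6 KO) and 65.9% (Dnmt3L KO) of the control of the line, which raises the ratios of the mutants.

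Models across all genes were run on the deposited fragment counts. When each mutant was tested on its own, the spread came from the 2 controls alone, and the single mutant library was assumed to vary like them. edgeR's quasi-likelihood test with the 2 controls as a group and each mutant alone left 1 residual degree of freedom, and 0 of 18657 genes passed a Benjamini-Hochberg adjusted p of 0.05 in either mutant. Before adjustment, 102 genes were higher and 1383 lower with p under 0.05 in the Pld6 KO, and 203 and 1440 in the Dnmt3L KO. Of the 10 genes, 2 had an unadjusted p under 0.05 in the Pld6 KO (Pld6 and Gtsf1) and 2 in the Dnmt3L KO (Mael and Gtsf1). For Pld6 in the Pld6 KO the log2 fold change was -6.00 (edgeR adjusted p = 0.102, the smallest value reached in that comparison), and the DESeq2 Wald test, which rests on the same 2 controls for its spread, gave an adjusted p of 1.68e-08, among 5.1% of genes lower in the Pld6 KO (5.31% in the Dnmt3L KO). For Gtsf1 the log2 fold changes were -1.70 in the Pld6 KO (edgeR adjusted p = 0.587) and -1.80 in the Dnmt3L KO (edgeR adjusted p = 0.508). For Mael they were -1.13 (edgeR adjusted p = 0.795) and -1.54 (edgeR adjusted p = 0.521). Pld6 in the Dnmt3L KO had a log2 fold change of -1.15 (edgeR adjusted p = 0.837). The other 7 genes had edgeR adjusted p of 1 in the Pld6 KO and of 0.825 to 0.998 in the Dnmt3L KO. The spread between the controls, which differ in line and genotype, was wide (biological coefficient of variation 0.589), and a p that misses the threshold does not show equal levels.

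With both mutants set against both controls, edgeR's quasi-likelihood test again passed 0 of 17686 genes, with 128 higher and 1548 lower at an unadjusted p under 0.05. Gtsf1 had a log2 fold change of -1.75 (edgeR adjusted p = 0.135) and Mael one of -1.32 (edgeR adjusted p = 0.203), and these 2 of the 10 genes had an unadjusted p under 0.05. With line as a block, which fits 1 common mutant effect to the differences within the lines, Gtsf1 (-1.75, edgeR adjusted p = 0.00741) and Mael (-1.33, edgeR adjusted p = 0.0319) passed, among 1058 lower genes (5.98% of those tested) and 131 higher ones (0.741%). That fit left 1 residual degree of freedom. It takes the mutants of 2 different genes as replicates of each other, so its p-values do not rest on replicates of either genotype. In that fit Ddx4 had a log2 fold change of -0.69 (edgeR adjusted p = 0.197). DESeq2 without the block passed Gtsf1 (adjusted p = 0.00738) and not Mael (adjusted p = 0.135), among 6.45% of genes that were lower. Over the 8 alternative fits the adjusted p ran from 0.00738 to 0.620 for Gtsf1, which passed in 2, and from 0.0319 to 0.745 for Mael, which passed in 1.

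Markers of stage and of other cell types differed between the libraries. The 20 markers of L/Z spermatocytes, such as Sycp3 and Dmc1, were all detected in each library, with summed FPKM of 3877 in the Pld6 WT, 2201 in the Pld6 KO, 2329 in the Dnmt3L Het and 1370 in the Dnmt3L KO. The 16 spermatogonial markers were steadier in sum, at 1258, 1200, 993 and 862 FPKM in the same order. Their medians varied more, at 34.7, 29.2, 17.0 and 24.5 FPKM. In the Pld6 KO 3 of the 16 were more than 2-fold higher than both controls and 0 lower. In the Dnmt3L KO 1 was higher and 2 lower. The 14 markers of pachytene spermatocytes, the next stage, summed to 940 FPKM in the Pld6 WT and 1530 in the Dnmt3L Het, but to 150 in the Pld6 KO and 111 in the Dnmt3L KO, and 12 of 14 were more than 2-fold lower than both controls in each mutant. The 16 spermatid markers summed to 236 FPKM in the Pld6 WT, 7469 in the Dnmt3L Het, 13.7 in the Pld6 KO and 31.3 in the Dnmt3L KO, where Acrv1 and Cabs1 were at 0 in the Pld6 KO and Smcp, Cabs1 and Hils1 in the Dnmt3L KO. Both controls thus held more RNA of later germ cells than either mutant, and Mael and Gtsf1 were low in the same libraries. The part of these cells in their levels was not tested, and in bulk RNA fewer cells of a type and less RNA per cell cannot be told apart.

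Sertoli cell RNA differed by line. The 16 Sertoli cell markers, none of them at 0 in any library, summed to 245 FPKM in the Pld6 WT, 580 in the Pld6 KO, 5480 in the Dnmt3L Het and 7271 in the Dnmt3L KO. Mov10l1 and Gpat2, which were lower in both libraries of the Dnmt3L line, were low where the Sertoli sum was high. Not all of the 10 genes did so. Mael (399 against 369 FPKM) and Gtsf1 (179.7 against 167) were higher in the Dnmt3L Het than in the Pld6 WT. The rest were lower there, Fkbp6 only slightly (229.9 against 242). Leydig, macrophage, and peritubular and vascular markers were all lowest in the Pld6 WT, with sums of 24.9, 17.5 and 133 FPKM. They reached 326 (Dnmt3L Het), 96.5 (Dnmt3L KO) and 573 FPKM (Pld6 KO) at most. Erythroid markers were instead lowest in the Pld6 KO, with a sum of 14.6 FPKM. Their sums were 28.9 FPKM in the Pld6 WT, 146 in the Dnmt3L KO and 679 in the Dnmt3L Het. The part of somatic RNA in the levels of the 10 genes was not tested.

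**Figure D4:**
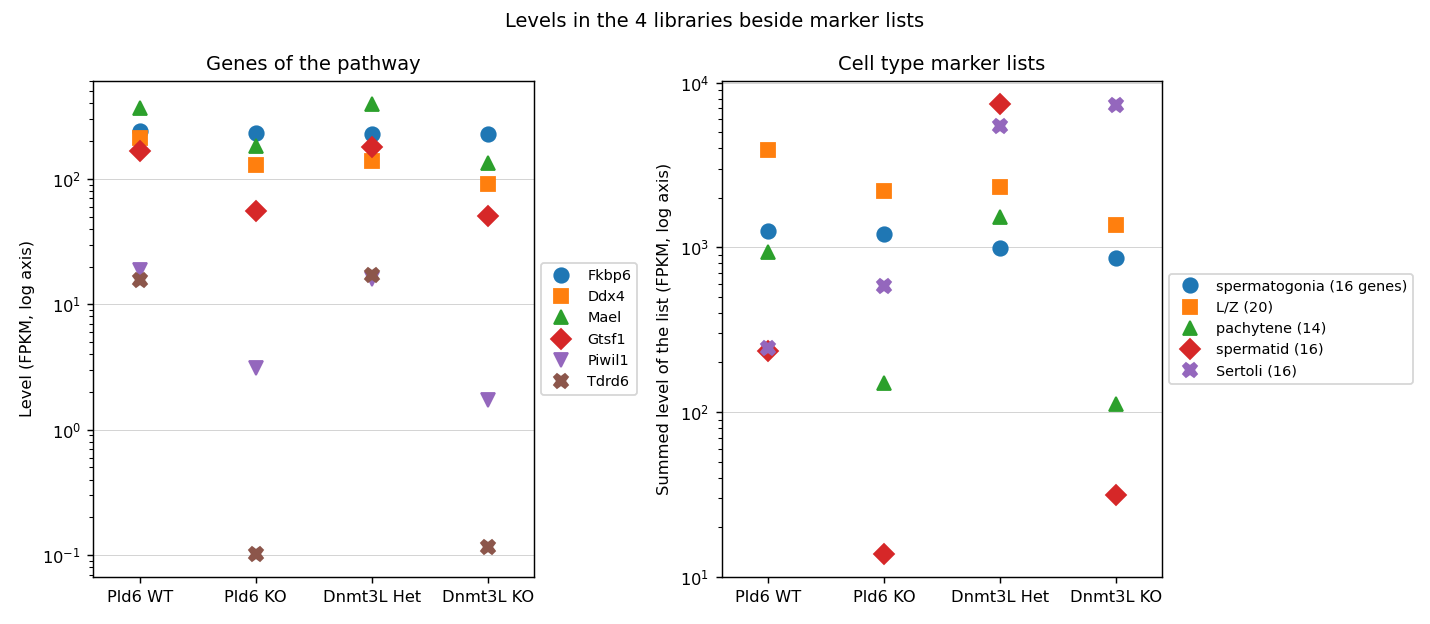
Left, FPKM of Fkbp6, Ddx4, Mael, Gtsf1, Piwil1 and Tdrd6, and right, the summed FPKM of the germ cell and Sertoli cell marker lists, in the same 4 libraries (log axes), each point 1 library. Mael, Gtsf1, Piwil1 and Tdrd6 are lower in both mutants than in both controls. The pachytene and spermatid sums are lower in both mutants, the Sertoli sum is high in both libraries of the Dnmt3L line, and the L/Z sum is highest in the Pld6 WT library.

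The 10 genes were then set beside the median profile of the 4 germ cell marker lists over the 4 libraries, as a description of 4 points. Mov10l1, Asz1, Henmt1, Pnldc1 and Fkbp6 were nearest to the spermatogonial markers (root mean square log2 difference 0.15 to 0.26). Gpat2 (0.24) and Ddx4 (0.13) were nearest to the L/Z markers. Mael and Gtsf1 were also nearest to the L/Z markers but at larger distances of 0.48 and 0.65, with 1.23 and 1.03 to the pachytene markers. Pld6 was far from all 4 lists, at 1.24 (pachytene) to 1.69 (spermatogonia). Its profile carries its own deletion in the Pld6 KO, so its nearest list says nothing of its stage. When FPKM was divided by the geometric mean of the L/Z markers of each library, the log2 change against both controls became -0.87 for Mael and -1.43 for Gtsf1 in the Pld6 KO, and -0.53 and -0.78 in the Dnmt3L KO, and neither gene passed the 2-fold rule against both controls in either mutant. That scaling moved the median of genes with a mean FPKM of at least 1 from -0.053 to 0.14 in the Pld6 KO. In the Dnmt3L KO it moved that median from -0.015 to 0.93. It scales all genes of a library by 1 factor. The distance of Mael and Gtsf1 from the median gene was therefore nearly fixed in advance, and nothing is drawn from it. It also turned the balance over all genes, from 249 higher and 1297 lower to 630 and 915 in the Pld6 KO, and from 513 and 1386 to 3739 and 758 in the Dnmt3L KO. On that scale Ddx4 was at -0.12 and 0.17, Asz1 at 0.017 and 0.83, Gpat2 at 0.46 and 0.46, Henmt1 at 0.21 and 0.35, Mov10l1 at 0.87 and 0.55 and Fkbp6 at 0.20 and 0.96, each with a changed sign in at least 1 mutant.

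Other genes of the pathway were taken from a list of 24, of which 23 were in the table (not Spocd1). In the Pld6 KO 2 were lower than both controls by the 2-fold rule and 0 higher, and in the Dnmt3L KO 4 were lower and 0 higher, against the same shares of all genes as above. The median log2 change of the 23 was -0.36 in the Pld6 KO and -0.22 in the Dnmt3L KO within the lines. The PIWI proteins themselves divided. Piwil1 (MIWI), the PIWI protein of pachytene spermatocytes and round spermatids, was at 18.7 FPKM in the Pld6 WT, 3.13 in the Pld6 KO, 15.99 in the Dnmt3L Het and 1.73 in the Dnmt3L KO, 5.97-fold and 9.24-fold below the control of the line. Piwil2 (MILI), present from fetal germ cells onward, was at 84.9, 74.5, 45.1 and 52.2 FPKM in the same order, and Piwil4 (MIWI2), the nuclear PIWI protein of fetal germ cells, at 4.11, 6.02, 2.83 and 3.12 FPKM. Piwil2 thus split by line like Mov10l1 and Gpat2.

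Tdrd6, a Tudor protein of the chromatoid body of later germ cells, was at 15.6 FPKM in the Pld6 WT and 17.0 in the Dnmt3L Het, but at 0.101 in the Pld6 KO and 0.117 in the Dnmt3L KO, from 22 and 38 fragments. It was 153.7-fold and 145-fold below the control of the line, a wider gap than that of Pld6 in its own knockout. Tdrd1, which tethers PIWI proteins in nuage, was at 31.0, 28.3, 25.1 and 25.8 FPKM in the order above. Mybl1, which encodes A-MYB, was at 24.7, 16.9, 13.7 and 15.7 FPKM. Tcfl5, a meiotic transcription factor, was at 51.8 FPKM in the Pld6 WT, 28.7 in the Pld6 KO, 61.5 in the Dnmt3L Het and 23.01 in the Dnmt3L KO, and D1Pas1, a DEAD-box retrogene whose reads may be shared with near-identical copies, at 33.2, 26.4, 23.8 and 9.95. Both were lower by the rule in the Dnmt3L KO alone, though this difference between mutants was not tested. In edgeR's quasi-likelihood test with the filter on low counts and without the block, 0 of the 23 passed in any comparison, with unadjusted p under 0.05 for Piwil1 and Tdrd6 in each mutant and for Piwil1, Tdrd6 and Tcfl5 with both mutants together, while DESeq2 passed Piwil1 and Tdrd6 in all 3 comparisons. Without the filter on low counts, edgeR passed Tdrd6 in all 3 (edgeR adjusted p of 0.0203 to 0.0288). With line as a block in edgeR, Piwil1, Tdrd6 and Tcfl5 passed.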

How the data were processed

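The authors sequenced polyA(+) RNA of FACS-purified L/Z spermatocytes as 50-bp single-end reads, which were aligned by TopHat2, with gene levels from Cuffdiff on RefSeq genes. The versions are not given in the sources used here. The submitters' processing notes name mm10. The deposited table holds, per gene and library, an estimated count of fragments (97.3% to 97.4% whole numbers) and FPKM, in which the authors' tool scaled fragments to transcript length and library depth. Fragments in genes numbered 63875934 (Dnmt3L Het, control replicate 1), 40541149 (Pld6 WT, control replicate 2), 49932330 (Dnmt3L KO) and 30439943 (Pld6 KO). A count of 0 allows up to 3 fragments. Intervals cover counting error only. The 31 values the tool marked as failed concern 28 genes, 0 of them described here.

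Log2 changes used FPKM with a pseudocount of 1, and a gene counted as higher or lower beyond 2-fold of both controls. Estimated counts were rounded and tested in edgeR 4.0.16 (quasi-likelihood, TMM, filterByExpr, Benjamini-Hochberg at 0.05; R 4.3.3), with DESeq2 1.42.0, other scalings, pseudocounts, filters, thresholds, left-out libraries and line as a block as alternatives. The edgeR script was tested on simulated data. P-values measure the spread between these libraries, none of which is a replicate of the same genotype. In the fits of each mutant alone, that spread lies between the 2 controls, which differ in line, genotype and sort. Any technical part of it cannot be told apart. The block pairs the libraries whose genotype labels name the same gene, Pld6 or Dnmt3L, which is what line means here. Across 14416 genes with a mean FPKM of at least 1, the deviations of the Pld6 line from the control mean and from the mutant mean had a Pearson r of 0.53.

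The 10 genes, the pathway list and the marker lists were chosen with earlier results of these data known. All 10 were named, and from the pathway list those called beyond both controls plus Piwil1, Piwil2, Piwil4, Tdrd1 and Mybl1. Likeness was the root mean square difference of centred log2(FPKM + 1). Positions and promoter windows came from RefSeq (GRCm38.p6).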

Additional observations from a re-analysis of the deposited data

Results flagged for a closer look

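In 2 of the 10 genes the mutant library lay above the control of the line in one line and below it in the other. For Mov10l1 the log2 change of FPKM + 1 was 0.12 in the Pld6 line and -0.060 in the Dnmt3L line. For Asz1 it was -0.59 in the Pld6 line and 0.090 in the Dnmt3L line. Neither contrast between lines was tested, since each genotype is a single library, and the changes of both genes were smaller than the difference between the controls. Among genes with a mean FPKM of at least 1, 31.7% also moved in opposite directions.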

How the results depend on the processing

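The count of the 10 genes beyond both controls was 3 in the Pld6 KO and 2 in the Dnmt3L KO. Every Pld6 KO count includes Pld6, the gene deleted in that library. Dividing FPKM by the geometric mean of the L/Z markers left 1 (Pld6) and 0, where 3.82% and 3.16% of all genes were lower, and a 3-fold threshold left 1 (Pld6) and 1 (Gtsf1), where 3.56% and 3.66% were lower. A 1.5-fold threshold gave 4 in the Dnmt3L KO (with Pld6 and Ddx4), where 9.16% of all genes were lower, and a pseudocount of 0.1 gave 3 (with Pld6), where 9.84% were. Leaving out a control gave 3 to 4 in the Pld6 KO and 2 to 5 in the Dnmt3L KO, the higher counts coming without the control of the same line. In these settings 6.46% to 13.4% of all genes were lower and 4.69% to 5.55% higher in the Pld6 KO, and 8.22% to 8.75% lower and 3.00% to 12.1% higher in the Dnmt3L KO. Of the 23 pathway genes, the count was 2 to 4 in the Pld6 KO and 4 to 9 in the Dnmt3L KO when a control was left out, beside those same shares of all genes, and 2 in the Dnmt3L KO with a 3-fold threshold. In the edgeR comparisons, which passed 0 of the 10 genes, Pld6 passed in the Pld6 KO without the filter on low counts and in DESeq2 (1 gene each). With both mutants together DESeq2 passed 1 (Gtsf1) and the fit with line as a replicate block 2 (Gtsf1 and Mael), while each fit without 1 library passed 0. No paired analysis was possible for a single mutant because each has 1 library. The L/Z scaling moved 14 of the 20 log2 changes of the 10 genes by more than the SD of the controls, and TMM-scaled CPM and a pseudocount of 0.1 moved 1 each. No called value changed sign. Over all genes, edgeR passed 0 in each comparison. Without the filter it passed 8 higher and 429 lower in the Pld6 KO, 6 and 423 in the Dnmt3L KO and 2 and 375 with both together, and DESeq2 passed 15 and 949, 17 and 925, and 37 and 1224. The cause of these differences was not tested. Depth did not limit the 10 genes apart from Pld6 in its knockout, which rests on 14 fragments.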

Other observations

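Among 10602 genes with a mean FPKM of at least 5, those whose profile over the 4 libraries lay nearest to the median profile of the 10 genes were 1810043H04Rik, Tmem5 and E2f5, with root mean square log2 differences of 0.019, 0.025 and 0.032. E2f5, a transcription factor of the E2F family, was at 66.0 FPKM in the Pld6 WT, 43.3 in the Pld6 KO, 42.0 in the Dnmt3L Het and 32.9 in the Dnmt3L KO. These distances describe 4 points and say nothing of shared function or control.

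The length that Cuffdiff effectively assigned to a gene was taken from the deposited fragments and FPKM, relative to that of Mael, and set to 100% in the Pld6 WT. Mael is thus at 100% in each library by construction. For Pld6 the length was 87.6% in the Pld6 KO, from 14 fragments, beside 97.4% in the Dnmt3L Het and 96.8% in the Dnmt3L KO. For Mov10l1, Asz1, Gpat2, Pnldc1 and Gtsf1 it did not move with the library. It ranged from 98.3% to 105.6% for Henmt1, up to 104.7% for Fkbp6 and from 99.7% for Ddx4, genes with more than 1 curated transcript, so the FPKM of these genes also carry the tool's split between transcripts.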
